A study of Homo sapiens with 23 samples.

Results

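The genes described here make cholesterol and fatty acids, or control and move them. They were taken from a list of 35 gene symbols covering the mevalonate and sterol enzymes, the SREBP system, sterol transport genes and the lipogenic enzymes, and each symbol was matched to 1 Ensembl identifier among the 57875 genes listed in the data. The data are RNA-seq profiles of HCT116, a human colorectal cancer cell line, made to ask which RNA levels depend on the Argonaute (AGO) proteins, which carry microRNAs to their target RNAs. Total RNA was sequenced with a strand-specific library from 5 lines with 3 replicates each: the wild-type line (WT) and lines with CRISPR-edited AGO1 (AGO1-/-), AGO2 (AGO2-/-), AGO1 and AGO2 together (AGO1/2-/-), or AGO1, AGO2 and AGO3 together (AGO1/2/3-/-), called AGO1 KO, AGO2 KO, AGO1/2 KO and AGO1/2/3 KO. Every line was grown in McCoy's 5a medium with 10% FBS and used at passages 12 to 18. Each genotype is represented by 1 line, so the genotype and the history of the line cannot be told apart, and the p-values reflect the spread between samples of those lines. Total counts per sample ran from 27709971 to 45271146 with a median of 30701840, and the 3 AGO2 KO samples, at 40419152 to 45271146, were deeper than the WT samples, at 29140175 to 32381721.

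Cells make cholesterol from acetyl-CoA through mevalonate, squalene and lanosterol, and the same acetyl-CoA is the starting point for fatty acids. When sterols in the endoplasmic reticulum run low, the escort protein SCAP carries the SREBP transcription factors to the Golgi, where they are cut and released to switch on most of the genes of both routes; INSIG proteins hold SCAP back when sterols are plentiful. When sterols are in excess, oxysterols activate the LXR receptors, whose targets include the exporter ABCA1, the ubiquitin ligase MYLIP and SREBF1 itself.

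Levels below are CPM, the counts scaled to a common library size after normalisation. Differences are log2 fold changes from edgeR's quasi-likelihood test fitted to all 15 samples, with Benjamini-Hochberg adjusted p-values over 22842 tested genes, and a gene is said to have risen or fallen where its adjusted p is at or under 0.05. All 35 members passed the filter on low counts. The 4 comparisons with WT share the 3 WT samples, and the comparison of AGO1/2/3 KO with AGO1/2 KO shares its samples with 2 of them, so their values stand side by side and are not independent.

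The edited genes were examined first. AGO1 (ENSG00000092847, chromosome 1, 35869808 to 35930532, GRCh38) stood at 138, 108 and 146 CPM in WT and at 34.4, 32.1 and 39.5 CPM in AGO1 KO, at 35.5, 37.8 and 36.6 CPM in AGO1/2 KO and at 35.5, 33.1 and 28.7 CPM in AGO1/2/3 KO. Every library of these 3 lines lay below every WT library, with log2 changes of -1.89, -1.84 and -2.01. AGO3 was at 100, 130 and 107 CPM in WT and 51.8, 57.4 and 46.1 CPM in AGO1/2/3 KO, where it fell by 1.12 on the log2 scale. AGO2 was at 379, 459 and 382 CPM in WT, 262, 314 and 283 CPM in AGO2 KO, 321, 332 and 364 CPM in AGO1/2 KO and 518, 558 and 538 CPM in AGO1/2/3 KO. Its RNA thus fell by 0.51 in AGO2 KO (adjusted p = 0.00518), was not called in AGO1/2 KO (log2 change -0.26, adjusted p = 0.0924) and rose by 0.40 in AGO1/2/3 KO (adjusted p = 0.00477), so the label of the triple line is not visible in the level of AGO2 RNA. An edit that ends the protein need not lower the RNA, and protein was not measured in these files. The paper reports western blots in which the knockout lines lacked the AGO proteins aimed at.

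Colon epithelium markers were present: EPCAM, CDH1, KRT8, KRT18, KRT19 and CDX2 passed the filter and VIL1, at 0.188, 0.128 and 0.0904 CPM in WT, did not. Their summed level was 1720, 1814 and 1927 CPM in WT and 1635, 1948 and 2124 CPM in AGO1/2/3 KO, with KRT8 the most abundant, while 3 of the 6 tested fell in the triple line, EPCAM, CDH1 and CDX2, with log2 changes of -1.74, -3.51 and -0.58. KRT8 rose there by 0.41. In AGO1/2 KO 2 of the 6 fell, EPCAM and CDH1, with log2 changes of -0.92 and -1.66, and KRT8 and KRT19 rose by 0.76 and 0.64. EPCAM and CDH1 also fell in AGO1 KO (-0.33 and -1.15), while in AGO2 KO EPCAM rose by 0.32 and KRT18 fell by 0.41. The part of these changes in the results was not tested. CDH1 stood at 84.5, 134 and 74.6 CPM in WT and at 8.73, 9.21 and 7.76 CPM in AGO1/2/3 KO. Marker lists of fibroblasts, leukocytes and endothelium summed to at most 30.5, 11.1 and 3.21 CPM in any sample. Among them CD68 rose by 1.31 in AGO1/2 KO and fell in AGO1/2/3 KO (log2 change -1.09), and COL1A1 fell in AGO1 KO, AGO2 KO and AGO1/2 KO (-0.96, -1.17 and -1.03). VWF fell in AGO2 KO (-1.25). The fibroblast marker LUM was at 0 in 9 of the 15 samples and the T cell marker CD3E in 13 of them.

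Some libraries stood apart from their replicates in these genes. WT 2 was the lowest of the 3 WT samples for 31 of the 35 members, AGO1/2/3 KO 1 the lowest of its line for 29, and AGO1/2 KO 3 the lowest of its line for 24. The summed level of the 8 mevalonate genes was 305, 181 and 412 CPM in WT. The median coefficient of variation among replicates was 28.5% for the members and 14.2% for all genes in WT, 21.0% and 12.0% in AGO1 KO, 9.79% and 9.22% in AGO2 KO, 18.2% and 10.8% in AGO1/2 KO, and 10.8% and 7.82% in AGO1/2/3 KO. A list of 10 proliferation genes, with MKI67 the most abundant, summed to 2598, 1135 and 2519 CPM in WT, 3274, 2662 and 1460 CPM in AGO1 KO, 3284, 3776 and 3605 CPM in AGO2 KO, 3384, 1970 and 2529 CPM in AGO1/2 KO and 3522, 3343 and 3508 CPM in AGO1/2/3 KO. WT 2 was therefore low in both groups of genes. Growth is not measured in these files, and the paper reports slower growth than WT for every knockout line but AGO1 KO, with the triple line the slowest. The part of proliferation in the results was not tested, and for each comparison the number of members called is also given without WT 2.

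**Figure D1:**
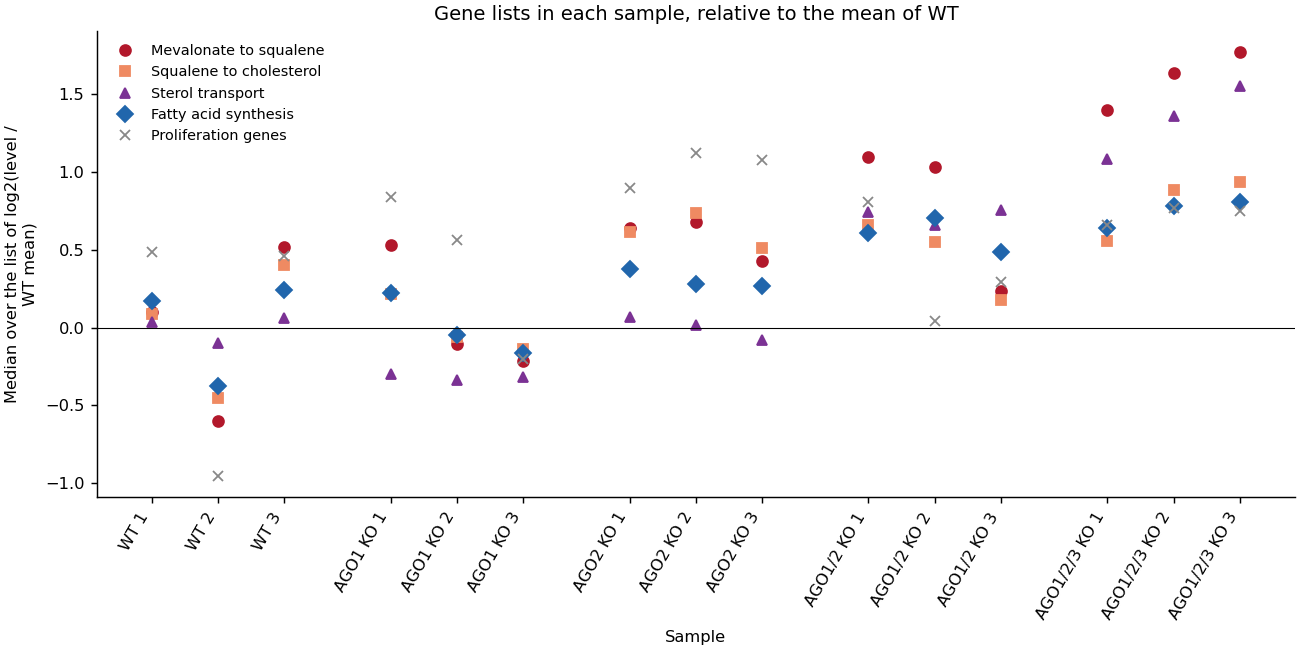
The vertical axis gives, for each of the 15 samples on the horizontal axis, the median over a gene list of log2(level divided by the WT mean), with 1 marker for each of 4 groups of members and for the proliferation genes. The WT mean is taken over log2 levels, with a small constant added to every level first. The mevalonate genes lie at -0.60 in WT 2 and at 1.40, 1.64 and 1.77 in the 3 AGO1/2/3 KO samples, and the proliferation genes at -0.95 in WT 2.

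Loss of AGO1, AGO2 and AGO3 together came with the largest shift. In AGO1/2/3 KO 27 of the 35 members rose against WT, beside 20.3% of all tested genes, and 0 fell, beside 19.8%. With an unadjusted p under 0.05 the counts were 27 and 0, and DESeq2's Wald test also gave 27 and 0. Over all 22842 tested genes the unadjusted counts were 5490 higher and 5396 lower, and those of DESeq2 4363 and 4304. The median log2 change was 0.93 over the members and -0.01 over all tested genes. In 29 members all 3 triple knockout samples lay above all 3 WT samples, beside 26.3% of all genes. Without WT 2 the counts were 24 higher and 1 lower, the latter being SQLE, and the member median was 0.68. Over all genes 4143 were then higher and 4451 lower, against 4644 and 4522 with all 15 samples. Proliferation genes had a median log2 change of 0.56 in this comparison, with 2 of 10 called higher and 0 lower, and their part in the result was not tested.

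**Figure D2:**
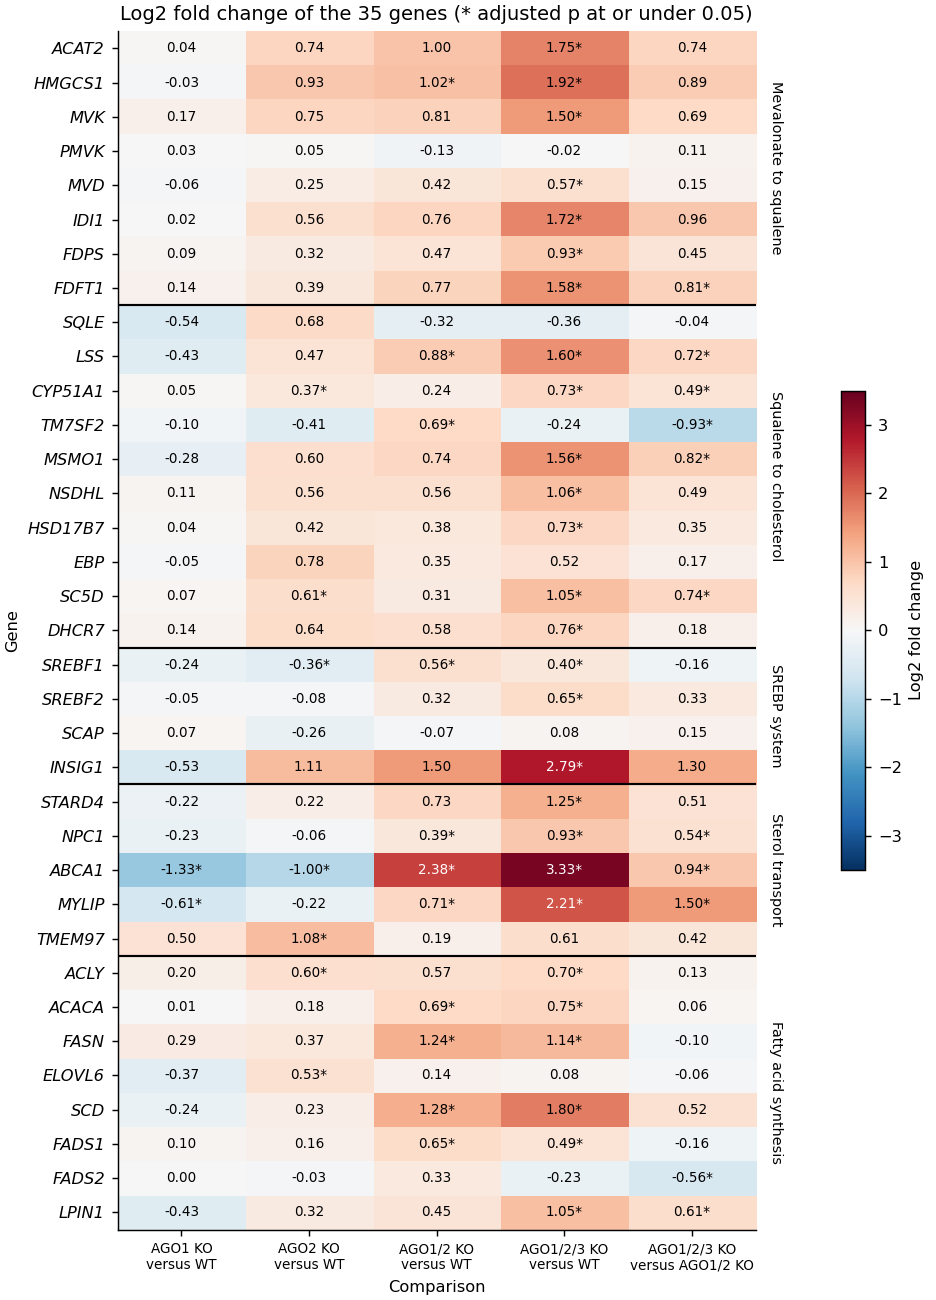
Log2 fold change of each of the 35 members in the 4 comparisons with WT and in AGO1/2/3 KO against AGO1/2 KO, with colour giving the change and an asterisk the call. The largest increases are ABCA1 at 3.33 and INSIG1 at 2.79 in AGO1/2/3 KO against WT and ABCA1 at 2.38 in AGO1/2 KO against WT, and the largest decrease is ABCA1 at -1.33 in AGO1 KO.

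Among the enzymes from acetyl-CoA to squalene, 7 of 8 rose in AGO1/2/3 KO, with a median log2 change of 1.54. HMGCS1, which makes HMG-CoA, was at 51.1, 36.9 and 79.2 CPM in WT and 155.0, 231 and 244 CPM in AGO1/2/3 KO, a log2 change of 1.92 (SE 0.32, adjusted p = 2.49e-04). Every triple knockout sample lay above every WT sample. ACAT2, which condenses acetyl-CoA to acetoacetyl-CoA, rose by 1.75, IDI1, the isopentenyl diphosphate isomerase, by 1.72, FDFT1, the squalene synthase, by 1.58, and MVK, the mevalonate kinase, by 1.50. FDPS, which makes farnesyl diphosphate, rose by 0.93. MVD, the decarboxylase of the route, rose least, by 0.57 (adjusted p = 0.0445), and it stayed called in 4 of the 24 other settings. Leaving out WT 1, WT 2 or any AGO1/2/3 KO sample was enough to lose it. PMVK, the phosphomevalonate kinase, was at 14.2, 11.9 and 14.0 CPM in WT and 13.0, 13.0 and 13.4 CPM in AGO1/2/3 KO. Its log2 change was -0.02, with a 95% interval of -0.27 to 0.23, below the change of each of the 7 others.

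Between squalene and cholesterol 7 of 10 enzymes rose in AGO1/2/3 KO, with a median log2 change of 0.74. MSMO1 (ENSG00000052802, chromosome 4, 165327667 to 165343164), the sterol C4-methyl oxidase, which the study also lists among genes with an AGO2 binding cluster, was at 36.0, 30.9 and 58.8 CPM in WT, 40.7, 28.0 and 34.5 CPM in AGO1 KO and 71.0, 70.0 and 49.3 CPM in AGO2 KO. It reached 76.5, 84.9 and 48.1 CPM in AGO1/2 KO and 96.8, 136 and 138 CPM in AGO1/2/3 KO. The triple knockout samples lay above every other sample, while AGO2 KO 3 and AGO1/2 KO 3 lay below WT 3. MSMO1 rose 2.95-fold in AGO1/2/3 KO (log2 1.56, SE 0.25, adjusted p = 1.74e-04), and without WT 2 the log2 change was 1.36. LSS, which closes squalene epoxide to lanosterol, rose by 1.60, NSDHL, the sterol dehydrogenase, by 1.06, SC5D, the sterol C5-desaturase, by 1.05, DHCR7, the last reductase of its branch, by 0.76, HSD17B7, the 3-keto-reductase, by 0.73 and CYP51A1, the lanosterol demethylase, by 0.73. EBP, the sterol isomerase, and TM7SF2, a C14 sterol reductase, were not called, with log2 changes of 0.52 and -0.24. The call of DHCR7 was lost without WT 2, AGO1/2/3 KO 2 or AGO1/2/3 KO 3, and that of HSD17B7 without AGO1/2/3 KO 3. HSD17B7 has a pseudogene pair in the annotation with 19.2% of its level, so some of its reads may be shared. ACAT2 shares 17.2% of its exon bases with TCP1, FDPS 18.6% with RUSC1-AS1 and TMEM97 12.3% with IFT20, each on the opposite strand. The mean levels of these partners were 342, 2.055 and 8.08 CPM, beside 36.7, 88.2 and 53.1 CPM for the members. The libraries keep the strand, but whether counting used it is not stated.

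**Figure D3:**
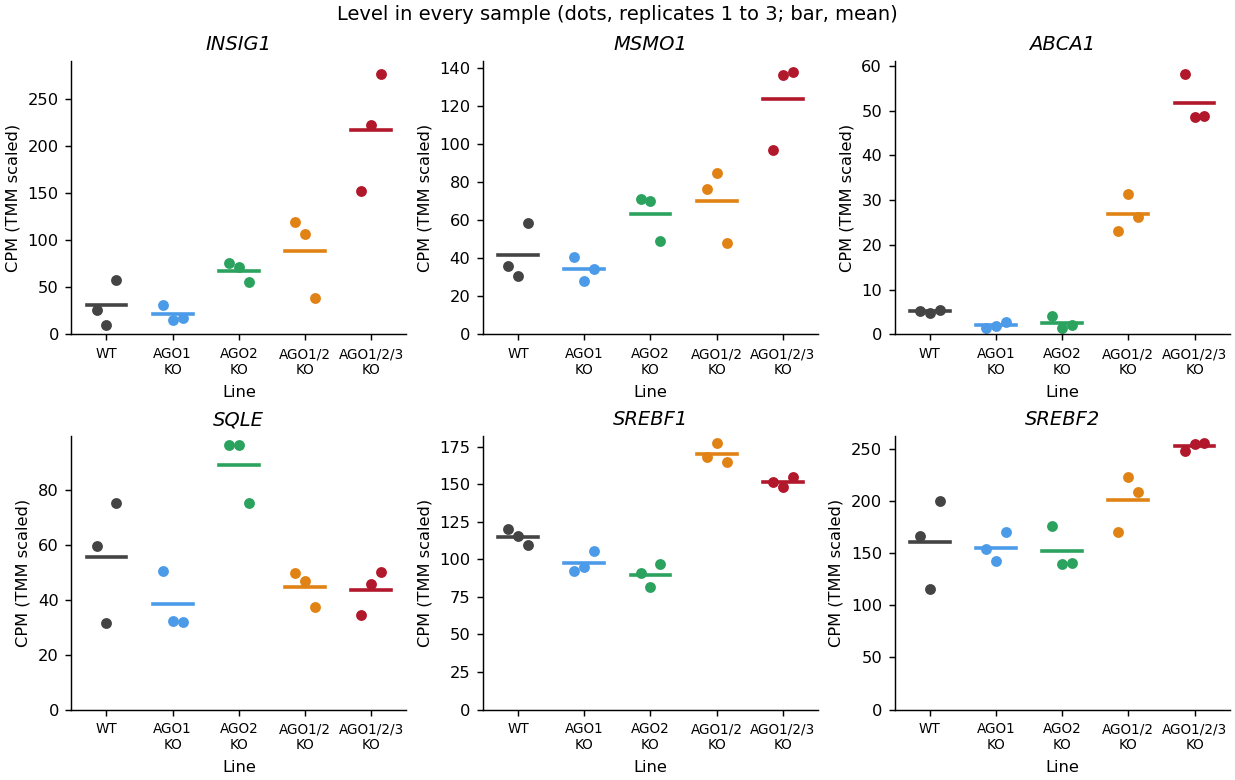
Level in CPM of INSIG1, MSMO1, ABCA1, SQLE, SREBF1 and SREBF2 in each of the 15 samples, with a point per sample and a bar for the mean of each line. ABCA1 lies between 4.81 and 5.40 CPM in WT and between 48.5 and 58.3 CPM in AGO1/2/3 KO, while SQLE in AGO1/2/3 KO stays within the WT range of 31.6 to 75.3 CPM.

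SQLE (ENSG00000104549, chromosome 8, 124998497 to 125022283), the squalene epoxidase and a rate-limiting step of the sterol branch, did not share the rise. It was at 59.6, 31.6 and 75.3 CPM in WT, 50.4, 32.2 and 32.0 CPM in AGO1 KO and 96.2, 96.1 and 75.0 CPM in AGO2 KO. It was at 49.5, 46.7 and 37.1 CPM in AGO1/2 KO and 34.3, 45.8 and 50.1 CPM in AGO1/2/3 KO. Both of these lines lay inside the WT range, and 2 of the 3 AGO2 KO samples lay above it. The log2 changes were -0.32 in AGO1/2 KO (adjusted p = 0.461) and -0.36 in AGO1/2/3 KO (SE 0.26, adjusted p = 0.302). Without WT 2, the lowest WT sample, SQLE fell by 0.66 in AGO1/2/3 KO (adjusted p = 0.0238), and over 24 alternatives its adjusted p ran from 0.0138 to 0.803.

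SQLE lies on the long arm of chromosome 8, where many other genes were lower in the same lines. Over the 355 other tested genes of the arm at 1 CPM or more, the median log2 change was -0.51 in AGO1/2 KO and -0.46 in AGO1/2/3 KO, against 0.02 and 0.04 over 15400 genes outside chromosome 8. In AGO1 KO and AGO2 KO it was 0.00 and 0.02. SQLE itself had log2 changes of -0.54 in AGO1 KO and 0.68 in AGO2 KO, neither of them called. Of the arm's genes 54.4% fell in AGO1/2 KO and 51.8% in AGO1/2/3 KO, against 9.14% and 21.8% outside the chromosome. Over the 40 genes within 5 Mb of SQLE the medians were -0.55 and -0.61, so SQLE at -0.32 and -0.36 stood above the middle of its neighbours. That place in AGO1/2/3 KO depends on WT 2. Without WT 2 SQLE was at -0.66 there, and the median of its neighbours in that setting is not given here. FDFT1, on the short arm of the same chromosome, has 192 such genes on its arm, with medians of 0.07 in AGO1/2 KO and 0.12 in AGO1/2/3 KO. Over the 30 genes within 5 Mb of FDFT1 the medians were -0.13 and -0.05. Copy number was not measured, and its part in the level of SQLE was not tested.

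**Figure D4:**
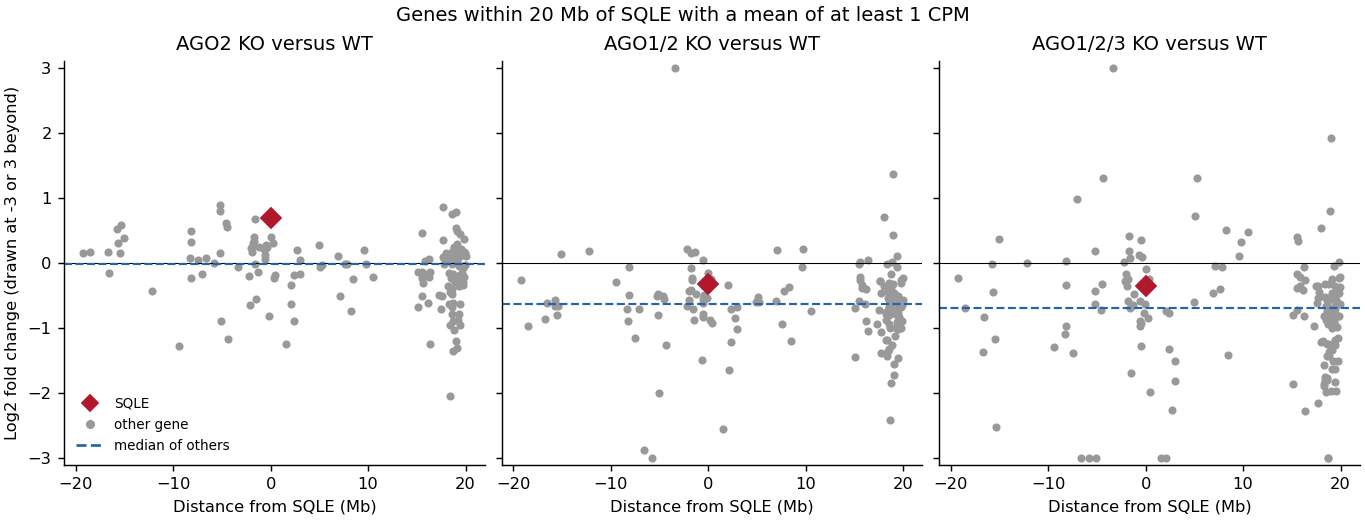
Log2 fold change of genes at 1 CPM or more against their distance in Mb from SQLE, up to 20 Mb on each side, in AGO2 KO, AGO1/2 KO and AGO1/2/3 KO against WT, with SQLE as a red diamond. The median over the 167 other genes, a dashed line, is -0.64 in AGO1/2 KO and -0.69 in AGO1/2/3 KO, and -0.02 in AGO2 KO.

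In the SREBP system 3 of 4 genes rose in AGO1/2/3 KO. INSIG1 (ENSG00000186480, chromosome 7, 155297776 to 155310235), the retention protein and itself an SREBP target, was at 26.5, 9.75 and 57.9 CPM in WT, 31.7, 15.8 and 17.9 CPM in AGO1 KO and 75.9, 71.6 and 55.6 CPM in AGO2 KO. It was at 120, 107 and 38.6 CPM in AGO1/2 KO and 153, 222 and 277 CPM in AGO1/2/3 KO. WT spread widely, AGO2 KO and AGO1/2 KO each overlapped WT 3 in 1 sample, and the triple knockout samples lay above all the others. INSIG1 rose 6.93-fold in AGO1/2/3 KO (log2 2.79, SE 0.49, adjusted p = 5.49e-04), with a log2 change of 2.35 without WT 2 and 3.56 without WT 3. SREBF2 (ENSG00000198911, chromosome 22, 41833105 to 41907306), which encodes the SREBP that favours sterol genes, was at 167, 115 and 200 CPM in WT, 154, 142 and 170 CPM in AGO1 KO and 175, 139 and 141 CPM in AGO2 KO. It was at 170, 222 and 208 CPM in AGO1/2 KO and 248, 254 and 255 CPM in AGO1/2/3 KO. The triple knockout samples lay close together and above all the others, a log2 change of 0.65 (SE 0.16, adjusted p = 0.00523) that was 0.44 without WT 2.

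SREBF1 (ENSG00000072310, chromosome 17, 17810399 to 17837002), which encodes the SREBP that favours fatty acid genes, had a different order of lines. It was at 120, 115 and 110 CPM in WT, 91.9, 95.1 and 105 CPM in AGO1 KO and 90.8, 81.9 and 97.0 CPM in AGO2 KO, and at 168, 177 and 165 CPM in AGO1/2 KO and 152, 148 and 155 CPM in AGO1/2/3 KO. The double knockout samples were the highest, the triple knockout samples came next, and the samples of both lines lay above WT while those of AGO1 KO and AGO2 KO lay below it. SREBF1 rose by 0.56 in AGO1/2 KO (SE 0.09, adjusted p = 4.74e-04) and by 0.40 in AGO1/2/3 KO (adjusted p = 0.00204), and fell by 0.36 in AGO2 KO (adjusted p = 0.0151). SCAP, the escort, was at 43.6, 51.2 and 44.4 CPM in WT and 52.7, 47.9 and 46.8 CPM in AGO1/2/3 KO, a log2 change of 0.08 with a 95% interval of -0.13 to 0.29.

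Because so many members moved together, their promoters were searched on both strands for letters that SREBP and its partner factors are known to bind. RefSeq start windows on GRCh38.p14, from 250 bases before to 50 after a start, were found for 31 members, with 42 windows; ACAT2, FDFT1, SQLE and FASN had no entry. The sterol regulatory element TCACNCCAC was found in 1 member window, that of SREBF2, or 2.38% of member windows against 1.13% of all 35116 windows. The match began 133 bases before the start at chr22:41832962-41832991 on the plus strand, shown here because it is the only member with these letters in the window, with the match in capitals.
SREBF2: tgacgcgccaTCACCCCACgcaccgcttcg
CCAAT, the core of the NF-Y box, was in 26 of the 42 windows, belonging to 22 members, or 61.9% against 34.6% of all windows. GGGCGG, the GC box of the Sp1 family, was in 37, belonging to 30 members, or 88.1% against 45.0% of all windows and 61.8% of those of tested genes. A match describes letters and not a bound site, and no match says only that these letters are not in this window.

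Of the sterol transport genes 4 of 5 rose in AGO1/2/3 KO, with a median log2 change of 1.25. ABCA1 (ENSG00000165029, chromosome 9, 104781006 to 104928155), which exports cholesterol to lipid-poor apolipoprotein, was at 5.29, 4.81 and 5.40 CPM in WT, 1.49, 1.83 and 2.87 CPM in AGO1 KO and 4.05, 1.50 and 2.15 CPM in AGO2 KO. It was at 23.2, 31.4 and 26.3 CPM in AGO1/2 KO and 58.3, 48.5 and 48.7 CPM in AGO1/2/3 KO. The 5 lines did not overlap except AGO1 KO with AGO2 KO: both lay below WT, and the double and triple knockouts lay above it in that order. The rise was 10.0-fold in AGO1/2/3 KO (log2 3.33, SE 0.26, adjusted p = 1.96e-07), and over 24 alternatives the log2 change ran from 3.18 to 3.36. MYLIP (ENSG00000007944, chromosome 6, 16129086 to 16148248), a ubiquitin ligase for lipoprotein receptors, was at 12.8, 13.4 and 12.2 CPM in WT, 7.16, 8.70 and 9.34 CPM in AGO1 KO and 13.4, 8.40 and 11.1 CPM in AGO2 KO. It was at 19.9, 20.2 and 22.8 CPM in AGO1/2 KO and 57.7, 58.0 and 62.1 CPM in AGO1/2/3 KO. The samples of the triple line were again the highest, those of the double line next, and those of AGO1 KO below WT, with a 4.63-fold rise in AGO1/2/3 KO (log2 2.21, SE 0.14, adjusted p = 2.35e-08).

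STARD4, a cytosolic sterol carrier, rose by 1.25 and NPC1, which lets cholesterol out of lysosomes, by 0.93 in AGO1/2/3 KO (adjusted p = 9.50e-04 and 3.00e-05). NPC1 was at 64.6, 86.6 and 58.2 CPM in WT and 125, 137 and 138 CPM in AGO1/2/3 KO. It is among the few members in which WT 2 was the highest WT sample, and the 2 lines did not overlap. TMEM97, a sterol-regulated protein that binds NPC1, was not called there, with a log2 change of 0.61 (adjusted p = 0.159) that was 0.21 without WT 2.

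The SREBF genes carry the miR-33 genes in their introns, and miR-33 is known to repress ABCA1, so the seed letters and their targets are printed. The mature miRNAs, from RefSeq on GRCh38.p14 at chr22:41900949-41900969 on the plus strand within SREBF2 and chr17:17813897-17813916 on the minus strand within SREBF1, share the seed shown in capitals, bases 2 to 8.
hsa-miR-33a-5p: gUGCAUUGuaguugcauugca
hsa-miR-33b-5p: gUGCAUUGcuguugcauugc
A 3' UTR match to the seed reads CAATGCA. It was found in 5 of the 35 member 3' UTRs (14.3%; LSS, SCAP, NPC1, ABCA1 and TMEM97), against 8.39% of 19228 annotated 3' UTRs, and the members' UTRs are also longer, with a median of 1497 against 1064 bases. ABCA1 had 4 matches in a UTR of 3309 bases, with 3 of them in 1 stretch that begins 135 bases after the stop codon. Of 2640 UTRs within 25% of that length, ABCA1's own among them, 16.2% had a match and 0.0758% had 3 or more. The length was set from ABCA1 itself, and overlapping matches, as in its stretch near the stop codon, were counted separately. The stretches lie in the 3' UTR on the minus strand of chromosome 9, at chr9:104784155-104784184 and chr9:104782823-104782852, and that of NPC1 at chr18:23531863-23531892 on the minus strand, with matches in capitals.
ABCA1 near the stop codon: tattCAATGCAATGCAattCAATGCAatga
ABCA1 further along: ttttaattgcaaCAATGCAaaagccaagaa
NPC1: gtaaaggccaatCAATGCActgtctgtctc
Of the 5 genes with a match, ABCA1, LSS and NPC1 rose in AGO1/2/3 KO and SCAP and TMEM97 were not called, while 24 of the 30 members with no match rose, beside 20.3% of all genes. In AGO1/2 KO 3 of the 5 and 8 of the 30 rose, beside 8.37% of all genes. In AGO1/2/3 KO against AGO1/2 KO 3 of the 5 and 6 of the 30 rose, beside 11.9%. In AGO2 KO 1 of the 5 and 4 of the 30 rose, beside 8.55%, and in AGO1 KO 0 of either, beside 3.17%. The miRNAs themselves were not measured by these libraries, and use of any match was not tested.

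Of the 8 fatty acid and lipid genes 6 rose in AGO1/2/3 KO, with a median log2 change of 0.72. SCD, which puts a double bond into saturated acyl chains, was at 1392, 846 and 1745 CPM in WT, 2461, 4249 and 2985 CPM in AGO1/2 KO and 4078, 4836 and 4993 CPM in AGO1/2/3 KO. Both lines lay above WT without overlap, and SCD rose by 1.80 in AGO1/2/3 KO (SE 0.23, adjusted p = 2.13e-05). FASN, the fatty acid synthase, was at 612, 321 and 733 CPM in WT, 1216, 1588 and 1118 CPM in AGO1/2 KO and 1084, 1281 and 1299 CPM in AGO1/2/3 KO. Its double and triple knockout samples overlapped each other and lay above WT, with log2 changes of 1.24 and 1.14. LPIN1, a phosphatidate phosphatase, rose by 1.05, ACACA, the acetyl-CoA carboxylase, by 0.75, ACLY, which makes acetyl-CoA from citrate, by 0.70, and FADS1, the delta-5 desaturase, by 0.49. The call of FADS1 was lost without WT 2, AGO1/2/3 KO 2 or AGO1/2/3 KO 3. ELOVL6, an elongase, and FADS2, the delta-6 desaturase, were not called, with log2 changes of 0.08 and -0.23.

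Per kilobase of union exon, a scale on which genes can be compared, SCD, FASN and ACLY were the 3 most abundant members in that order in all 5 lines. SCD was at 253 CPM per kb in WT and 884 in AGO1/2/3 KO. INSIG1 moved from 8.60 CPM per kb and place 17 of 35 in WT to 59.6 and place 4 in AGO1/2/3 KO, and SQLE from 12.9 and place 12 to 10.1 and place 25. ABCA1 was the least abundant member in WT, at 0.456 CPM per kb, and stood at 4.57 in AGO1/2/3 KO, in place 30. Neighbouring places often differ by less than the spread of the replicates.

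Scaling by total counts alone, in place of TMM, shifted the median log2 change of all genes in AGO1/2/3 KO to -0.15, with 36.7% of all calls higher in place of 50.7%, and left 25 members higher and 0 lower with a member median of 0.79. FADS1 and MVD were the calls lost.

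The triple knockout line, which by its label adds the loss of AGO3, was compared directly with the double knockout line. Between these lines the log2 changes of AGO3, AGO2 and AGO4 RNA were -1.115, 0.67 and 1.05, each of them called. AGO3 was thus not the only AGO gene whose RNA differed, and the part of the others was not tested. In AGO1/2/3 KO against AGO1/2 KO, 9 members rose, beside 11.9% of all genes, and 2 fell, beside 10.0%, with a median log2 change of 0.45 against -0.01 over all genes. In 18 members all 3 triple knockout samples lay above all 3 double knockout samples, beside 22.0% of all genes. MYLIP rose by 1.50 (SE 0.14, adjusted p = 3.25e-06), ABCA1 by 0.94 (adjusted p = 0.0118) and MSMO1 by 0.82 (adjusted p = 0.0286), in the samples given above, and LSS, FDFT1, SC5D, LPIN1, NPC1 and CYP51A1 rose by 0.49 to 0.81. The fatty acid genes had a median of 0.00, the mevalonate genes 0.72 and the later sterol enzymes 0.42. FASN, ACACA, ACLY, ELOVL6 and FADS1 had log2 changes between -0.16 and 0.13, and SCD, not called, had 0.52 with a 95% interval of 0.03 to 1.01. Of the 6 colon epithelium markers tested, 3 fell at this step and 0 rose. These were EPCAM, CDH1 and KRT19, with log2 changes of -0.83, -1.85 and -0.62. CD68 also fell (-2.40), and COL1A1 rose by 1.12. Proliferation genes had a median of 0.33, with 0 of 10 called. The part of these changes in the members' result was not tested.

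Both members that fell at this step had a higher mean in the double knockout than in WT. TM7SF2 was at 15.9, 14.1 and 16.6 CPM in WT, 18.2, 32.8 and 24.1 CPM in AGO1/2 KO and 14.0, 13.2 and 12.1 CPM in AGO1/2/3 KO. The triple samples lay below both other lines, and TM7SF2 fell by 0.93 from double to triple (SE 0.22, adjusted p = 0.00682). FADS2 was at 12.2, 7.81 and 10.1 CPM in WT, 13.6, 11.6 and 12.9 CPM in AGO1/2 KO and 8.52, 8.23 and 8.98 CPM in AGO1/2/3 KO, and fell by 0.56 (SE 0.17, adjusted p = 0.0264). Its triple samples lay inside the WT range. FADS2, at a mean of 10.2 CPM, shares 4.64% of its exon bases with FADS1 on the opposite strand, at 92.5 CPM. It also shares 0.464% with FEN1 on the same strand, at 93.0 CPM, so some of its reads may be shared. Without WT 2 the counts were 16 higher and 2 lower, with a member median of 0.44. Over all genes they were then 3084 and 2822, against 2720 and 2295 with all 15 samples. The count of members called higher was 4, 4 and 5 without AGO1/2 KO 3, AGO1/2/3 KO 3 and AGO1/2/3 KO 2. Over all genes 1945, 1825 and 2027 were called higher in the same order. Without AGO1/2 KO 1, AGO1/2 KO 3 or any AGO1/2/3 KO sample FADS2 was no longer called, nor was ABCA1 without AGO1/2 KO 1 or AGO1/2/3 KO 1, nor MSMO1, LSS, FDFT1 and LPIN1 without AGO1/2 KO 1, AGO1/2 KO 3, AGO1/2/3 KO 2 or AGO1/2/3 KO 3. LPIN1 was also lost without AGO2 KO 1, AGO2 KO 2 or AGO2 KO 3, and CYP51A1 without AGO1/2 KO 3 or AGO1/2/3 KO 3.

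**Figure D5:**
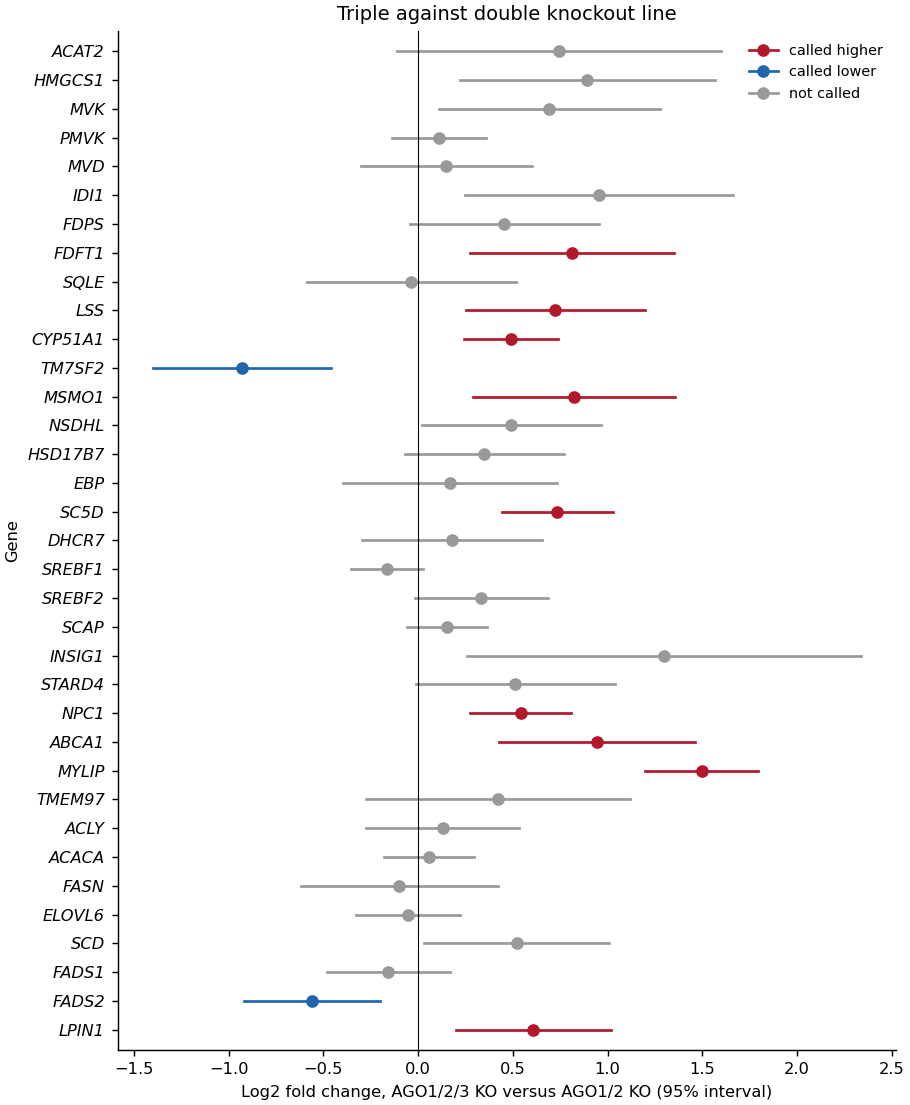
Log2 fold change of each of the 35 members in AGO1/2/3 KO against AGO1/2 KO, with 95% intervals as bars and colour for the call. MYLIP at 1.50 is the largest increase that passed and TM7SF2 at -0.93 the largest decrease, while INSIG1 at 1.30 did not, with an interval of 0.26 to 2.34.

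Loss of AGO1 and AGO2 was accompanied by a rise of 11 members, beside 8.37% of all genes, and a fall of 0, beside 8.35%, where edgeR gave 23 and 0 at an unadjusted p under 0.05 and DESeq2 17 and 0. Over all 22842 tested genes the unadjusted counts were 3345 higher and 3288 lower, and those of DESeq2 1916 and 2061. The median log2 change was 0.57 over the members and 0.01 over all genes. The median was 0.77 over the mevalonate genes, with 1 of 8 called, 0.71 over the transport genes, with 3 of 5 called, and 0.61 over the fatty acid genes, with 4 of 8 called. The median standard error was 0.27, 0.25 and 0.18 in the same order. ABCA1 rose 5.21-fold (log2 2.38, SE 0.26, adjusted p = 2.17e-05), SCD by 1.28 (SE 0.23, adjusted p = 0.00140) and FASN by 1.24 (SE 0.24, adjusted p = 0.00281), with the values in every sample given above. MYLIP, ACACA, FADS1 and SREBF1 rose by 0.56 to 0.71. HMGCS1 was at 136, 141 and 62.1 CPM, with AGO1/2 KO 3 inside the WT range, and its rise of 1.02 (adjusted p = 0.0405) held in 9 of the 24 other settings, being lost without WT 1, WT 2, AGO1/2 KO 1 or AGO1/2 KO 2 among others. LSS, TM7SF2 and NPC1 rose by 0.88, 0.69 and 0.39 and held in 21, 9 and 6 of the 24. Of the 11 calls 6 held under every alternative (ABCA1, MYLIP, ACACA, FASN, SCD and SREBF1). Without WT 2 the counts were 9 higher and 0 lower, with a member median of 0.43, and 20 were higher without WT 3 and 7 without AGO1/2 KO 2. Over all genes 1565, 1845 and 1204 were called higher in the same order, against 1913 with all 15 samples. Without WT 2 the log2 change of SCD was 1.03 and of FASN 0.95. With total counts as the scale 34.9% of all calls were higher in place of 50.1%, and 8 members were higher and 0 lower.

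In AGO2 KO 5 members rose, beside 8.55% of all genes, and 2 fell, beside 10.8%, with a median log2 change of 0.37 against -0.02. TMEM97 was at 46.8, 15.6 and 48.4 CPM in WT and 75.2, 86.9 and 72.4 CPM in AGO2 KO, a log2 change of 1.08 (SE 0.33, adjusted p = 0.0341). SC5D was at 25.8, 23.3 and 34.2 CPM in WT and 42.0, 44.6 and 40.0 CPM in AGO2 KO, a change of 0.61 (SE 0.14, adjusted p = 0.00989), and ACLY at 256, 154 and 275 CPM in WT and 305, 380 and 351 CPM in AGO2 KO, a change of 0.60 (SE 0.19, adjusted p = 0.0399). For these 3 genes every AGO2 KO sample lay above every WT sample. ELOVL6 and CYP51A1 rose by 0.53 and 0.37. ABCA1 and SREBF1 fell, with log2 changes of -1.002 (SE 0.28, adjusted p = 0.0240) and -0.36, the opposite direction to the double and triple knockouts, whose samples share the edit of AGO2.

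The AGO2 KO counts, of members and of all genes alike, rested on few libraries. Over all genes 1952 were called higher with all 15 samples, 494 without WT 2, 389 without AGO2 KO 2 and 506 without AGO2 KO 3. The all-gene number was 1401 without AGO2 KO 1 and 2064 without WT 3. The number of members called higher was 0 without WT 2 or without AGO2 KO 2, 1 without AGO2 KO 1, 2 without AGO2 KO 3, AGO1/2/3 KO 2 or AGO1/2/3 KO 3, 3 without WT 1 or AGO1/2 KO 2, 8 without AGO1 KO 1 or AGO1 KO 3, 9 without AGO1/2 KO 3 and 13 without WT 3. Without WT 2 the number called lower was 2 and the member median 0.16. The log2 changes of TMEM97, SC5D and ACLY were then 0.69, 0.47 and 0.35. Without AGO2 KO 2 the number called lower was also 0, and without AGO2 KO 3 the fall of ABCA1 was lost. With total counts as the scale 2 members were higher and 3 lower, the median over all genes was -0.14 and 16.9% of all calls were higher in place of 44.3%. Proliferation genes had a median log2 change of 0.89 in this comparison, with 2 of 10 called higher, and per the file headers the AGO2 KO quantification carries a name that the other lines lack, so its processing and its genotype cannot be told apart.

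In AGO1 KO 0 members rose, beside 3.17% of all genes, and 2 fell, beside 5.5%, where edgeR gave 0 and 5 at an unadjusted p under 0.05 and DESeq2 0 and 2. Over all 22842 tested genes the unadjusted counts were 2131 higher and 3020 lower, and those of DESeq2 828 and 1416. The median log2 change was 0.00 over the members and -0.01 over all genes. ABCA1 fell by 1.33 (SE 0.30, adjusted p = 0.0113) and MYLIP by 0.61 (SE 0.15, adjusted p = 0.0177), with every AGO1 KO sample below every WT sample for both. Both calls were lost without AGO1 KO 1 or AGO1 KO 2, that of MYLIP also without WT 1, and without WT 2 the counts were 0 higher and 4 lower, with LSS and SQLE added and a member median of -0.19. Over all genes 1257 were called lower with all 15 samples, 648 without AGO1 KO 1, 575 without AGO1 KO 2 and 1146 without WT 2. With total counts as the scale the counts were 0 and 4, and 20.5% of all calls were higher in place of 36.6%. The 33 other members were not called, which at a median standard error of 0.22 does not show that they did not differ.

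Other genes of the same pathways were counted in AGO1/2/3 KO, where 20.3% of all tested genes rose and 19.8% fell. Of 20 tested genes of sterol sensing and handling, 12 rose and 1 fell, with a median log2 change of 0.48. NCEH1, a cholesteryl ester hydrolase, stood at 15.9, 15.2 and 18.5 CPM in WT and 125, 145 and 176 CPM in AGO1/2/3 KO, a rise of 3.16, and ABCG1, another LXR-driven exporter, rose by 1.56 from 2.16, 4.40 and 2.20 CPM to 9.57, 7.29 and 8.85 CPM. NR1H3, which encodes LXR alpha, fell (log2 change -0.395), and NR1H2, which encodes LXR beta, rose by 0.63. CH25H was not tested. Of 33 genes of wider lipid synthesis, 15 rose and 4 fell, with a median of 0.36: SCD5, a second stearoyl-CoA desaturase gene, rose by 1.76 and ACSL3, an acyl-CoA synthetase, by 1.46, while DGAT1, which makes triacylglycerol and lies on the long arm of chromosome 8, fell by 0.91 and LPIN3, a relative of LPIN1, by 0.69. Of 11 genes that use isoprenoids for other ends, 4 rose and 0 fell in edgeR (4 and 0 at an unadjusted p under 0.05), with a median of 0.04, led by ICMT, the isoprenylcysteine methyltransferase, at 0.93, and COQ2, of ubiquinone synthesis, at 0.85. Over all 22842 tested genes the unadjusted counts were 5490 and 5396. Of 16 fatty acid oxidation genes 2 rose and 1 fell, with a median of -0.01. PPARA rose by 0.90 and ETFB fell by 0.54.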

How the data were processed

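The authors extracted RNA from 5 HCT116 lines, made strand-specific total RNA libraries, aligned reads to hg38 with STAR and quantified them with Salmon. Versions differ between the methods text and the labels, which give STAR 2.5.3a and Salmon 0.11.0. The deposited values are estimated counts (expected counts) per gene, unscaled, for 15 samples; 8 eCLIP samples of the study were not analysed. Estimated counts were rounded, filtered with filterByExpr, TMM-scaled and fitted with edgeR 4.0.16 (quasi-likelihood, 1 mean per line; R 4.3.3, limma 3.58.1), with Benjamini-Hochberg adjustment over 22842 genes. CPM use the TMM library sizes. Depth was 27709971 to 45271146 counts. The fit was tested on simulated data. Alternatives were DESeq2 1.42.0 (size factors; Wald test), total counts, 2 other filters, only the 6 samples compared, leaving out the AGO2 KO samples, a replicate block, leaving out each replicate, and leaving out 2 libraries. Tables, searches and plots used Python 3.11.15, numpy 2.4.6, pandas 2.3.3, scipy 1.17.1 and matplotlib 3.10.9. Genes follow GENCODE 44. All members may be named; values in every sample are given for MSMO1, SQLE, SREBF1, SREBF2, ABCA1, INSIG1 and up to 3 called members per direction and comparison with the largest change, and other lists by their 2 largest called changes per direction at a mean of at least 1 CPM. HMGCS1, PMVK, SCAP, NPC1, marker and NR1H2 values were added after seeing the data. The members and lists were chosen with earlier results of these data known. Of the fatty acid oxidation list, 1 called gene is not reported here.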

Additional observations from a re-analysis of the deposited data

How the results depend on the processing

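No member's call changed direction under any of 24 alternatives (23 for AGO2 KO). Of the called members, 23 of 27 in AGO1/2/3 KO, 6 of 11 in AGO1/2 KO, 4 of 11 in AGO1/2/3 KO against AGO1/2 KO, 0 of 7 in AGO2 KO and 0 of 2 in AGO1 KO held under every one. In AGO2 KO the 5 members called higher became 2 with total counts, 10 with DESeq2's Wald test, 13 with no filter on low counts, 2 with only the 6 samples compared, 3 with the replicate block and 2 without WT 2 and AGO1 KO 3, the libraries lowest in proliferation genes, a setting chosen after seeing the data; the 2 called lower became 1 with no filter and 0 with the 6 samples. In AGO1/2 KO the 11 called higher became 17 with the Wald test, 19 with no filter and 6 with the 6 samples, and 1 member was called lower without the 2 libraries. In AGO1 KO the 2 called lower became 4 with total counts and 1 with the 6 samples. In AGO1/2/3 KO 2 members were called lower without the 2 libraries, and against AGO1/2 KO 17 in place of 9 were called higher with the 6 samples and without the 2 libraries. The 3 fatty acid oxidation genes called became 5 with total counts and without the 2 libraries. Leaving out 1 replicate at a time gave 0 to 13 higher and 0 to 3 lower in AGO2 KO, 7 to 20 higher in AGO1/2 KO, 0 to 4 lower in AGO1 KO, 0 to 1 lower in AGO1/2/3 KO, and 4 to 16 higher and 1 to 2 lower in AGO1/2/3 KO against AGO1/2 KO. Counts over all genes moved too: in AGO2 KO the number called higher ran from 389 to 2612 over the same settings. Where a replicate is left out, 2 samples of its line remain. Libraries of the same number in different lines did not deviate together on average. Over 30 such pairs the mean correlation of deviations from the line means was -0.00669, with single pairs from -0.218 to 0.291. The mean of 0.00333 for other pairs is no independent reference, since deviations within a line cancel. A batch shared by some of the lines was not tested, and pairing by number is an alternative and not the design. The cause of the changes in calls was not tested. At a median standard error of 0.22 on the log2 scale, small changes in single members cannot be resolved.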
